A study of Mus musculus with 18 samples.

Results

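The inserts described here made almost no RNA in cells given a control siRNA, although their DNA was present in the cell pool. They were chosen by 3 criteria: no spliced form listed, 3 or fewer RNA reads in total over the 3 control cultures, and 100 or more genomic DNA (gDNA) reads summed over the 3 cultures of each siRNA. Of 16461 inserts, 14057 had no spliced form listed, 12425 of these also met the gDNA minimum, and 266 of these (2.14%) met the RNA limit. No minimum was set on RNA in the knockdowns, so all 266 entered the counts of gains and the edgeR fits of all libraries. Comparisons that choose inserts in fewer cultures have their own numbers. Without the gDNA minimum 1055 inserts would have met the other criteria. The 789 left out had under 100 gDNA reads with at least 1 siRNA, not necessarily siNT. As the choice used control RNA, the low control level is not a result. The RNA reads after knockdown were not used to choose, but the gDNA minimum also applied to each knockdown.

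The cells were mouse embryonic stem cells of a female CAST/129 hybrid background, grown with LIF and inhibitors of MEK and GSK3. All cultures carried the same modified locus, with TagBFP2 at Oct4C, the insert library at Oct4ua157 and the mKate2 reporter at Oct4ua172, each on the 129 allele. The siRNAs were a non-targeting control (siNT), siWDR82 and siZC3H4, each used on 3 cultures that the study calls biological replicates. Each culture gave 1 RNA library and 1 gDNA library. The siRNA dose was 30 nM by the protocol, but siWDR82 replicate 2 is labelled 31 nM and replicate 3 is labelled 32 nM. The depletion of either protein was not analysed here, and the insert sequences, which are known here by number alone, were not used.

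WDR82 and ZC3H4 are core subunits of Restrictor, a nuclear complex that ends transcription by RNA polymerase II early, mainly at RNAs that do not code for protein. WDR82 binds the phosphorylated tail of the polymerase, and ZC3H4 is a zinc-finger protein. Upstream antisense RNAs start near the promoters of active genes, run away from the gene and are usually short-lived. INSERT-seq places many DNA inserts into such a unit, here that of Oct4 (Pou5f1), so that the steady-state RNA of each can be read against its own gDNA, which gives its representation in the pool.

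RNA libraries held 32173068 to 52840375 insert reads and gDNA libraries 4584881 to 11510602. The gDNA libraries of siWDR82 replicates 2 and 3 and of siZC3H4 replicate 3 held 4584881 to 5129592 reads, against at least 8146606 in the others. An insert counted as having RNA in a culture at 10 or more reads, which is 0.189 to 0.311 CPM (reads scaled to the insert reads of the library) across the libraries. The reads come from PCR without molecular identifiers, so intervals and limits from read numbers cover counting error alone.

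In siNT, 118 of the 266 inserts had 0 RNA reads in all 3 cultures together, 74 had 1 read, 46 had 2 and 28 had 3. These reads were spread over the cultures, as 200, 195 and 188 of the inserts stood at 0 in siNT replicates 1, 2 and 3. The highest value of any insert in those cultures was 2, 2 and 3 reads. Their gDNA over the 3 siNT cultures ran from 107 to 2965 reads with a median of 395, while the median of the 12425 inserts without a spliced form that met the gDNA minimum (the eligible inserts) was 1851. The nearly silent inserts were thus mostly ones with less gDNA than others. Fewer cells that carry an insert and less RNA per cell cannot be told apart in these pooled cultures.

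Most of these inserts had RNA after knockdown of either Restrictor subunit. With siWDR82, 185 of 266 (69.5%) gained RNA, defined as 10 or more reads in at least 2 of the 3 cultures, 25 (9.40%) stayed nearly silent at 3 or fewer reads over the 3 cultures, and 56 lay between the classes. With siZC3H4, 184 (69.2%) gained RNA, 26 (9.77%) stayed nearly silent and 56 lay between. At a gDNA minimum of 300, which leaves 69 inserts, 2.90% stayed nearly silent with siWDR82 and 4.35% with siZC3H4, and 89.9% and 88.4% gained RNA. Read over any 2 of the 3 cultures, at 2 or fewer reads, 15.4% to 16.5% of the 266 stayed nearly silent with siWDR82, and 13.9% to 19.2% with siZC3H4, the highest without siZC3H4 replicate 1. Among all eligible inserts, 98.3% met the definition of a gain in siWDR82, 98.0% in siZC3H4 and 91.9% in siNT, so the nearly silent inserts still reached that number of reads less often than eligible inserts as a whole. Because the choice fixed the siNT value near 0, a rise against the same siNT cultures is given below as a description and supports nothing.

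Per culture, the share of the 266 inserts with 10 or more RNA reads was 66.9%, 66.5% and 68.0% in siWDR82 replicates 1 to 3. It was 69.2%, 66.5% and 53.8% in siZC3H4 replicates 1 to 3, and 0% in each siNT culture by the choice of inserts. The siZC3H4 replicate 3 library stood below the others although its RNA library was the deepest. The distribution of reads had few intermediate values, since 25.6% ± 0.65 (SD, n = 3) of the inserts stood at 0 reads in a siWDR82 culture and 7.27% ± 0.57 had 1 to 9 reads. In siZC3H4 the shares were 27.9% ± 6.0 and 8.90% ± 2.42. An insert therefore mostly had either no RNA read or at least 10 of them in a given knockdown culture.

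The gain was often not seen in every culture of an siRNA. With siWDR82, 110 inserts had 10 or more reads in 3 of 3 cultures, 75 in 2, 56 in 1 and 25 in none. With siZC3H4 the numbers were 82, 102, 54 and 28. Asking for all 3 cultures lowered the share that gained to 41.4% with siWDR82 and 30.8% with siZC3H4. Over the 6 knockdown cultures together, 255 inserts (95.9%) had RNA in at least 1 culture, 167 (62.8%) in at least 4, 51 in all 6 and 11 in none. A single culture gave over 90% of the reads of 59 of the 241 inserts with 10 or more reads over the siWDR82 cultures, and of 57 of the 238 with siZC3H4.

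Most inserts that gained RNA with 1 siRNA also gained it with the other. A gain with both was seen in 150 inserts, which is 81.1% of the siWDR82 list and 81.5% of the siZC3H4 list, and 219 inserts gained with at least 1. Of all 266, 69.2% gained with siZC3H4 and 69.5% with siWDR82, so lists of this size share many inserts whatever their agreement. A complete opposition was rare, with 5 inserts that gained with siWDR82 and stayed nearly silent with siZC3H4, and 4 the other way round. Among those that stayed silent, 10 inserts were nearly silent with both, 40.0% of the 25 for siWDR82 and 38.5% of the 26 for siZC3H4. These lists do not use siNT reads, though both start from the same 266 inserts and the same cell pool. Of all 266, 9.40% stayed nearly silent with siWDR82 and 9.77% with siZC3H4. Beyond these shares the overlap was not set against a chance level.

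Across the 266 inserts, the level in siWDR82 (RNA CPM over gDNA CPM, pooled over the 3 cultures) ranked much like that in siZC3H4, with a Spearman rho of 0.57, against 0.85 across all eligible inserts. Inserts are not independent replicates, and the points share their pool and their gDNA depth. Between single cultures rho was 0.21 to 0.34 within siWDR82, 0.28 to 0.33 within siZC3H4 and 0.23 to 0.37 between cultures of different siRNAs. The ranges overlapped, so cultures of the same siRNA did not rank these inserts visibly more alike than cultures of different siRNAs.

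The RNA that appeared was low compared with that of other inserts. The pooled level of the 266 had a median of 0.13 with siWDR82, where the median eligible insert was at 0.70, and of 0.11 with siZC3H4, where it was at 0.69. Among those that gained RNA the medians were 0.19 and 0.16. In rank, the median of the 266 lay at percentile 5.79 of the eligible inserts with siWDR82 and 6.16 with siZC3H4, and 8 and 6 of them exceeded the eligible median. The nearly silent inserts thus had RNA in the knockdowns but remained at the low end of the library.

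To read siNT and knockdown cultures on equal terms, inserts were also chosen in 2 siNT cultures, at 2 or fewer RNA reads in sum, and read in the siNT culture left out of the choice and in the 6 knockdown cultures. This was done with each siNT culture left out in turn and gave 504 inserts with siNT replicate 3 left out, 433 with replicate 2 and 419 with replicate 1. The share of them with 10 or more RNA reads was 37.5%, 39.0% and 46.2% in siNT replicates 1, 2 and 3 when each was the one left out. A nearly silent state in 2 control cultures was therefore often not repeated in the third. In the knockdown cultures the share was higher, at 73.7% ± 1.0 with siWDR82 and 69.5% ± 5.9 with siZC3H4, against 40.9% ± 4.7 in siNT (SD over 3 cultures each).

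The knockdown and siNT cultures did not overlap in this comparison. Within each of the 3 choices, the lowest knockdown culture was siZC3H4 replicate 3, at 60.1%, 63.7% and 64.9%, above the siNT culture left out. The difference from siNT was 32.7 ± 3.6 percentage points with siWDR82 and 28.6 ± 3.2 with siZC3H4 (SD over the 3 choices, which share knockdown cultures). It exceeded the spread between siNT cultures with either siRNA. At 50 or more reads it was 22.7 and 18.8 points. Comparing the 266 inserts with the siNT cultures that chose them, at 0%, leaves out this share, since in inserts chosen in 2 cultures the siNT culture with no part in the choice stood at 40.9% on average.

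The amount of RNA was also read in inserts that had any. Among inserts chosen in the other siNT cultures, those with 10 or more reads had a median of 152 ± 24 reads in the siNT culture left out, 149 ± 17 in siWDR82 and 145 ± 52 in siZC3H4 (SD, n = 3). Their median level relative to gDNA was 0.22 ± 0.019, 0.23 ± 0.026 and 0.20 ± 0.017. The differences lay within the spread between cultures, but the values come from different inserts in each culture, picked by their reads, and from scaling to library totals. Summed over all inserts chosen, siNT cultures had 0.11 ± 0.014 RNA CPM per gDNA CPM, siWDR82 cultures 0.22 ± 0.019 and siZC3H4 cultures 0.18 ± 0.0083. This is 1.93 ± 0.29-fold and 1.58 ± 0.25-fold the siNT value. With RNA scaled to spike-in reads instead of library totals the ratios were 4.12 and 2.66.

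Representation in the pool moved with these results. Taken over the 266 inserts, gDNA CPM in the knockdown over that in siNT had a median of 1.20 with siWDR82 and 1.24 with siZC3H4, where the eligible inserts had 1.00 and 0.987. The ratio exceeded 1 for 167 and 173 of the 266. Of the 99 inserts with a siWDR82 ratio of 1 or less, 59 (59.6%) gained RNA, against 75.4% of the other 167, and of the 93 with a siZC3H4 ratio of 1 or less, 61 (65.6%) gained RNA, against 71.1%. The choice used siNT RNA, which varied with gDNA within a culture, so these ratios are not free of the choice. The part of gDNA in the gain was not tested beyond these values.

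Insert gDNA was also compared where a siNT culture was left out of the choice. There, the mean gDNA of a chosen insert was 16.5 ± 2.4 CPM in the siNT cultures that chose it, 18.2 ± 1.5 in the siNT culture left out, 18.5 ± 1.0 in siWDR82 and 19.6 ± 1.4 in siZC3H4. Among chosen inserts whose gDNA CPM in the siNT culture left out was at or above their mean in the knockdown, 72.6% ± 0.97 had RNA in siWDR82 against 49.7% ± 6.0 in siNT, and 68.9% ± 0.38 in siZC3H4 against 48.4% ± 4.5 in siNT. With 20 or more gDNA reads asked of every library, which left 229 to 293 inserts, the shares were 44.8% ± 6.0 in siNT, 78.8% ± 1.8 in siWDR82 and 73.7% ± 2.0 in siZC3H4. In the inserts with siNT gDNA at or above the knockdown, a subset set after seeing the data, the difference was 23.0 and 20.5 percentage points, smaller than over all chosen inserts. The part of gDNA in the difference was not tested.

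Within a knockdown, RNA was found more often where more of the insert's gDNA was read. Of the pairs of an insert and a siWDR82 culture, 36.3% had RNA where the gDNA library had 0 to 19 reads, 62.6% at 20 to 99 reads and 82.2% at 100 or more. In siZC3H4 the shares were 33.3%, 53.1% and 74.8%. In siNT, 456 such pairs had 100 or more gDNA reads, and 0 of them had 10 RNA reads, by the choice of inserts.

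Split by siNT gDNA, the nearly silent inserts were 18.9% of eligible inserts at 100 to 249 reads, 10.9% at 250 to 499, 3.25% at 500 to 999, 0.68% at 1000 to 1999 and 0.138% at 2000 or more. The share that gained RNA was 59.7%, 66.7%, 76.2%, 82.6% and 100% over the same bins with siWDR82, and was 58.2%, 65.7%, 79.4%, 78.3% and 100% with siZC3H4. The last bin holds 8 inserts, so its share rests on few. Of the 31 inserts with 1000 or more siNT gDNA reads, 27 gained RNA with siWDR82, 26 with siZC3H4 and 25 with both.

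The same bins, taken over all eligible inserts with no choice on RNA, also differed between siRNAs. At 100 to 249 siNT gDNA reads, 52.7% ± 4.7 of 355 eligible inserts had 10 or more RNA reads in a siNT culture, 80.5% ± 0.33 in siWDR82 and 77.4% ± 3.8 in siZC3H4. At 250 to 499 reads the shares were 64.4% ± 4.0, 86.9% ± 1.1 and 85.4% ± 1.9. At 2000 or more they were 98.5% ± 0.50, 99.9% ± 0.056 and 99.9% ± 0.062. The distance between siNT and the knockdowns was widest in the bin of lowest gDNA. The bins were cut on siNT gDNA, while 100 reads were also asked of the knockdown gDNA libraries, which were less deep. The lowest bin therefore leans to inserts with more gDNA CPM in the knockdowns than in siNT. The part of this in the distance was not tested.

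Eligible inserts with 0 RNA reads numbered 718, 678 and 519 in the siNT cultures, 213, 198 and 211 in siWDR82, and 193, 253 and 256 in siZC3H4. All 6 knockdown cultures lay below all 3 siNT cultures. A two-sided exact permutation test of the 6 against the 3 had p = 0.0238, which is the lowest value such a split can reach, and 0.0714 after Benjamini-Hochberg adjustment over 3 comparisons. For either siRNA alone the exact permutation p was 0.1, the smallest for 3 against 3 cultures. Drawn down to the depth of the smallest RNA library, the expected numbers were 736 ± 112, 224 ± 12 and 255 ± 44 (SD, n = 3).

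The same rule turned around found far fewer inserts. At 3 or fewer RNA reads over 3 cultures, 266 eligible inserts were nearly silent in siNT, 47 in siWDR82 and 58 in siZC3H4. Of the 47, 7 (14.9%) had 10 or more reads in at least 2 siNT cultures and 25 were nearly silent in siNT too. Of the 58, 6 (10.3%) had RNA in siNT by that definition and 26 were nearly silent there. Silence in a knockdown was thus seldom paired with RNA in siNT, whereas about 69.5% and 69.2% of the inserts silent in siNT had RNA in the knockdowns. A total of 10 inserts were nearly silent with all 3 siRNAs, of which 2 had 0 RNA reads in all 9 libraries, and 225 were so in siNT alone.

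Inserts were also chosen in 2 cultures of a knockdown and read in the culture left out and in the cultures of the other siRNAs. Inserts chosen in siWDR82 (88 to 99 of them) had RNA in 50.2% ± 3.0 of cases in the siWDR82 culture left out, in 41.9% ± 1.7 in siZC3H4 and in 25.1% ± 1.4 in siNT (SD over the 3 choices). Inserts chosen in siZC3H4 (96 to 129) had RNA in 45.2% ± 8.7, 47.4% ± 1.5 in siWDR82 and 26.7% ± 1.5 in siNT. For inserts chosen in either knockdown, the siNT cultures showed RNA least often.

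The edgeR quasi-likelihood test was run on RNA over gDNA with the siNT culture that had no part in the choice and the 6 knockdown cultures. With siNT replicates 1, 2 and 3 as that culture, siWDR82 raised 32 of 419, 25 of 433 and 25 of 504 chosen inserts (7.64%, 5.77% and 4.96%; adjusted p under 0.05), where 5.36%, 3.5% and 2.36% of all inserts tested were called higher. siZC3H4 raised 30, 23 and 19 of them (7.16%, 5.31% and 3.77%), against 4.4%, 3.28% and 2.24% of all. The shares were above those of all inserts in each case, but most chosen inserts were not called. The median fitted log2 change was 1.63 to 4.83 with siWDR82 and 1.50 to 4.44 with siZC3H4, against 0.057 to 0.14 and 0.096 to 0.14 over all inserts tested. Lower calls were rare throughout, with at most 2 chosen inserts in any of these fits (2 of 504, where 0.99% of all inserts were called lower).

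These calls rest on a lone siNT culture, which is assumed to vary like the knockdown cultures. They also shifted when single knockdown cultures were left out. The siNT cultures varied more, with a median SD of the log2 level of 0.70 across eligible inserts against 0.49 in siWDR82 and 0.52 in siZC3H4, so these adjusted p-values may be too small. Averaged over the 3 fits, 6.12% of chosen inserts were called higher with siWDR82 and 5.41% with siZC3H4. Leaving out single cultures moved this share up or down. Without a siNT replicate the inserts were also chosen anew, in a single siNT culture with a lower read limit. Those shares therefore do not show the part of the missing siNT culture alone. The share of all inserts called higher was not computed for these settings, so the moved shares cannot be set against it. DESeq2 gave 17.1% and 15.4%, against 6.59% and 5.86% of all inserts. With RNA counts alone, without gDNA, 4.55% were called with siWDR82 against 3.94% of all, and 2.39% with siZC3H4 against 2.74% of all, so that the siZC3H4 share was no longer above that of all inserts. Spike-in scaling gave 9.60% with siWDR82, against 4.88% of all.

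In the edgeR fit of all 18 libraries, 48 of the 266 inserts were called higher with siWDR82 (45 with the culture as a block), where 0.581% of all inserts were (1.44% with the block). None was called lower, 0 in either fit, where 0.11% of all were (1.67% with the block). With siZC3H4, 31 were called higher (20 with the block), where 0.323% were (0.342% with the block), and 0 lower in either fit, where 0.0258% of all were (0.0904% with the block). RNA reads in every siWDR82 culture exceeded those in every siNT culture for 124 of the 266 (46.6%), against 20.8% of all eligible inserts. In every siZC3H4 culture they did so for 103 (38.7%), against 16.4% of all eligible inserts. The choice of inserts used the siNT libraries of these comparisons, so these counts are a description.

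Tested directly against each other on RNA over gDNA, siZC3H4 and siWDR82 differed for 0 of the 266 inserts (edgeR, adjusted p under 0.05), where 0.0% of all 15484 inserts did. DESeq2 called 2, where it called 0.207% of all inserts. At an unadjusted p under 0.05 there were 24 (9.02%), against 2.03% of all inserts, 15 of them lower with siZC3H4. The median log2 difference, siZC3H4 minus siWDR82, was -0.24 with quartiles of -1.36 and 0.74, against a median of 0.0057 and quartiles of -0.44 and 0.40 for all. The lack of calls does not show that the siRNAs act alike on these inserts, since the fitted differences of single inserts were wide.

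For gDNA alone, 0 of the 266 were called with either siRNA against siNT (edgeR, adjusted p under 0.05), where 0.0% of all were. At an unadjusted p under 0.05 there were 4 with siWDR82 and 12 with siZC3H4, or 1.50% and 4.51%, against 3.83% and 6.03% of all inserts. DESeq2 called 0 and 1 of the 260 it tested, where it called 0.104% of all with either siRNA. The median log2 change of gDNA over the 266 was 0.25 and 0.21, against -0.0091 and -0.036 over all, without a call for any single insert. This lean is not free of the choice, which used siNT RNA, as RNA and gDNA deviated together within a culture. For inserts chosen in 2 siNT cultures, mean gDNA was 18.2 ± 1.5 CPM in the siNT culture left out. It was 18.5 ± 1.0 in siWDR82 and 19.6 ± 1.4 in siZC3H4. The part of the choice in the lean was not tested. Leaving out siNT replicate 1 gave 3 calls with siZC3H4, where 0.834% of all inserts were then called.

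The inserts with the highest level in both knockdowns were sequence_15823, sequence_03974 and sequence_08464. sequence_15823 had 0, 1 and 1 RNA reads in siNT replicates 1 to 3, then 766, 648 and 1089 in siWDR82 and 556, 270 and 109 in siZC3H4. All 6 knockdown cultures lay far above all siNT cultures. Its gDNA was low, at 116, 0 and 60 reads in siNT, 76, 21 and 50 in siWDR82 and 102, 64 and 0 in siZC3H4. The pooled level was 2.50 with siWDR82 and 1.16 with siZC3H4, or percentiles 97.2 and 72.0 of the eligible inserts, against 0.0030 in siNT.

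sequence_03974 was more uneven. It had 0, 1 and 0 RNA reads in siNT, 60, 64 and 1048 in siWDR82, and 2, 205 and 741 in siZC3H4, so that a single culture of each siRNA gave most of its reads. With gDNA of 106, 10 and 26 reads in siNT, 44, 0 and 61 in siWDR82 and 0, 106 and 6 in siZC3H4, its pooled level was 1.64 and 1.74. These levels rest on single libraries, since the siWDR82 level was 0.46 without replicate 3, and the siZC3H4 level was 20.2 without replicate 2 and 0.57 without replicate 3. sequence_08464 had 1, 0 and 0 RNA reads in siNT, 536, 671 and 2 in siWDR82 and 102, 150 and 1041 in siZC3H4. The culture with 2 reads, siWDR82 replicate 3, also had the fewest gDNA reads of the siWDR82 cultures for this insert, at 7 against 78 and 139. In siZC3H4 its gDNA was 35, 4 and 93 reads, so replicate 2 had 150 RNA reads beside 4 gDNA reads.

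The best-covered insert that gained RNA with both siRNAs was sequence_07320, with 9392 gDNA reads over the 9 libraries. Its RNA reads were 0, 0 and 3 in siNT from 983, 1390 and 486 gDNA reads. They were 1071, 610 and 664 in siWDR82 from 2761, 313 and 498 gDNA reads, and 801, 162 and 1122 in siZC3H4 from 1837, 661 and 463. The groups did not overlap, and RNA was present in 6 of 6 knockdown cultures. The pooled level was 0.096 with siWDR82 and 0.14 with siZC3H4, at percentiles 3.86 and 8.84 of the eligible inserts, against 0.00027 in siNT. Without siWDR82 replicate 1, which held most of its siWDR82 gDNA, the siWDR82 level was 0.19.

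Some inserts stayed nearly silent throughout despite ample gDNA. Of the 10 that did so with both siRNAs, sequence_03885 had the most, with 2108 gDNA reads. Its RNA reads were 0, 1 and 1 in siNT, 1, 0 and 2 in siWDR82 and 0, 0 and 0 in siZC3H4. With 673 gDNA reads over the siZC3H4 cultures, 0 RNA reads allow a pooled level of up to 0.00092 (3 reads over the group), against a median of 0.69 for eligible inserts. sequence_09053, with 1687 gDNA reads, had 2 RNA reads in siWDR82 replicate 2 and 0 in the other 8 cultures. sequence_10701, with 1598 gDNA reads, had 1 RNA read in siWDR82 replicate 2 and 0 elsewhere.

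Among inserts that gained RNA with at least 1 siRNA, 4 with the largest ratio between the siRNAs, 2 in each direction, were picked for that difference. Inserts with RNA in 1 culture of an siRNA were not ranked here. sequence_10741 had 0, 0 and 0 RNA reads in siWDR82 but 172, 167 and 146 in siZC3H4, and 1, 0 and 0 in siNT. Its pooled level was at least 127-fold higher with siZC3H4 than with siWDR82, taking 3 reads over the siWDR82 cultures as the floor, although its gDNA in siWDR82 lay mostly in replicate 1, at 107, 8 and 12 reads. sequence_09458 had 0 RNA reads in siNT and siWDR82 and 99, 31 and 92 in siZC3H4, from gDNA of 136, 87 and 41 reads in siWDR82 and 62, 205 and 112 in siZC3H4, a level at least 72.1-fold higher.

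In the other direction, sequence_11313 had RNA in siWDR82 replicates 2 and 3 (63 and 43 reads) and 0 reads in the other 7 cultures, a level at least 121-fold higher with siWDR82 than with siZC3H4, where its gDNA was 90, 407 and 16 reads. sequence_09360 had 1, 33 and 94 RNA reads in siWDR82, 3, 0 and 0 in siZC3H4 and 0 in siNT, a ratio of 58.2 (95% interval 19.5 to 286, exact for the RNA counts, with gDNA taken as known). None of these 4 was called in the direct edgeR test, whose lowest adjusted p over the 266 inserts was 1.0.

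The nearly silent inserts were unevenly spread over insert numbers, which the rule did not use. They were 0.418% of the eligible inserts numbered 1 to 4000, 1.31% of those above 4000 up to 5500, 2.48% above 5500 up to 9000, 3.68% above 9000 up to 12000, 5.81% (5 of 86) above 12000 up to 12500, and 6.50% above 12500 up to 14000. Above 14000 up to 15000 the share was 0.334%, above 15000 up to 16000 it was 4.41%, and above 16000 it was 0.698%. The sources used here do not say what the number ranges stand for. Ranges with many nearly silent inserts mostly had less gDNA per insert, with a median of 2299 siNT reads for numbers 1 to 4000 and 1087 for those above 12500 up to 14000. Among inserts under 500 siNT gDNA reads the shares were 4.05% (9 of 222) and 22.3% (29 of 130), but other ranges changed places, as those above 16000 went from 0.698% to 16.7% (2 of 12).

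The share that gained RNA also differed between number ranges. Above 5500 up to 9000, 55 of 69 (79.7%) gained RNA with siWDR82 and 54 (78.3%) with siZC3H4. Above 12500 up to 14000, 22 of 36 (61.1%) and 17 (47.2%) did. Above 9000 up to 12000 the shares were 63.1% and 69.0% of 84, and above 15000 up to 16000 they were 66.7% and 72.2% of 36. The number ranges were not tested against each other.

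The share that gained RNA was lowest for inserts with 0 siNT reads, a difference that was not tested. Of the 118 with 0 siNT reads, 69 (58.5%) gained RNA with siWDR82 and 67 (56.8%) with siZC3H4. With 1 read the shares were 68.9% and 75.7%, with 2 reads 87.0% and 84.8%, and with 3 reads 89.3% and 78.6%. Just outside the rule, 19 eligible inserts had 4 to 6 siNT reads, and 16 (84.2%) and 15 (78.9%) of them had RNA by the same definition. At 2 or 3 siNT reads and at 4 to 6, the shares with RNA were alike on both sides of the limit. Few inserts lay just outside it, as the reads of an insert were mostly either near 0 or far above.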

How the data were processed

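INSERT-seq RNA and gDNA libraries were made from 9 cultures, 18 libraries in all. The values the authors deposited are unnormalized counts of reads for each insert or spliced form. The submitters' processing notes name build mm10 and the tools STAR, SAMtools, Bowtie2 2.3.4.3 and cutadapt 1.14, without their roles. Columns were matched to samples by library name.

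Unspliced and spliced reads were added for the RNA of each insert; the 266 inserts have unspliced reads alone. Levels are RNA CPM over gDNA CPM, with CPM scaled to insert reads. Fits used edgeR 4.0.16 (R 4.3.3) quasi-likelihood with 6 groups, the interaction of RNA over gDNA, TMM factors within each molecule, a mean of at least 20 gDNA reads and no RNA minimum, since an RNA minimum would admit nearly silent inserts only through knockdown reads. P-values were Benjamini-Hochberg adjusted over all inserts tested, with a threshold of 0.05. DESeq2 1.42.0 was an alternative, as were other scalings, filters, read limits, blocks and leaving out each replicate. Scripts were tested on simulated data.

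The members and lists were chosen with earlier results of these data known. Deviations of RNA and gDNA from the group means correlated within the same culture in all 9 (r 0.29 to 0.47 across inserts), so a fit with culture as a block was also made; same-numbered cultures of different siRNAs did not all correlate (r -0.0072 to 0.14 for RNA over gDNA and -0.0069 to 0.20 for gDNA), so the numbers were not taken as pairs. Replicate libraries differed beyond counting noise, the lowest ratio of chi-square to its degrees of freedom being 31.3. Named inserts were the 3 with the highest lower knockdown level, the 3 with most gDNA among those nearly silent in both, the 2 with the largest ratio between siRNAs in each direction among those that gained with at least 1 siRNA, and the best-covered insert that gained with both.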

Additional observations from a re-analysis of the deposited data

How the results depend on the processing

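Of 190 alternatives to the results that answer a comparison, 126 left the value within the spread, within 1.5 times a count or on its side of the threshold. No value changed sign, but with RNA counts alone the share called higher with siZC3H4 fell below that of all inserts. The share staying nearly silent with siWDR82 was 11.9% for inserts with 0 siNT reads, 8.56% with up to 10 siNT reads and 2.90% at a gDNA minimum of 300. With siZC3H4 it was 14.4%, 9.25% and 4.35%. The share gaining RNA under these settings was 58.5%, 71.2% and 89.9% with siWDR82. It was 56.8% at 0 siNT reads and 88.4% at a gDNA minimum of 300 with siZC3H4, and the share gaining with both was 39.0% and 81.2%. Asking for 50 reads in a culture gave 55.3%, 50.8% and 38.7% with siWDR82, siZC3H4 and both, and asking for 3 of 3 cultures gave 41.4%, 30.8% and 19.2%. RNA scaled to the smallest library gave 70.4% with siWDR82. With gDNA CPM at or below siNT, a setting chosen after seeing the data, 59.6% gained with siWDR82. The difference from the siNT culture left out of the choice was 22.7 and 18.8 points at 50 reads and 38.3 and 32.8 points at a gDNA minimum of 300 with siWDR82 and siZC3H4. Among chosen inserts with gDNA CPM in that siNT culture at or above the knockdown, it was 23.0 and 20.5 points. This subset was also set after seeing the data and does not match gDNA between the siRNAs. RNA per gDNA with spike-in scaling was 4.12-fold and 2.66-fold the siNT value, a scaling that also raised all inserts. The share called higher was 17.1% and 15.4% with DESeq2, 9.60% with spike-in scaling for siWDR82 and 2.39% with RNA alone for siZC3H4, against 2.74% of all. DESeq2 called 2 inserts between the siRNAs and 1 for gDNA with siZC3H4.

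Leaving out each replicate gave 15.4% to 16.5% nearly silent with siWDR82 and 13.9% to 19.2% with siZC3H4. It gave 50.4% to 51.5% and 39.1% to 50.4% gaining RNA, and 33.8% to 43.6% gaining with both. These shifts follow in part from the definition, which then asks for both cultures that remain. Where inserts were chosen with a siNT culture left out, dropping a siNT replicate also changed the choice. It was then made in a single siNT culture with a lower read limit. The ranges of differences from siNT, RNA per gDNA and calls higher than siNT include this change. The differences from siNT ran from 28.0 to 33.1 and from 25.4 to 31.9 points, RNA per gDNA from 1.75-fold to 2.03-fold and from 1.49-fold to 1.62-fold, calls from 3.90% to 9.56% and from 2.90% to 8.40%, and gDNA calls with siZC3H4 from 0 to 3. The difference in eligible inserts at 0 RNA reads ran from -477 to -378, with an exact permutation p of 0.0714 without any 1 siNT replicate, the smallest that 6 against 2 cultures allow. At 0 reads as the limit, 118, 27 and 31 inserts were silent in siNT, siWDR82 and siZC3H4, and 58.5% and 56.8% of the 118 had RNA with siWDR82 and siZC3H4.

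With the culture as a replicate block, which pairs RNA and gDNA, 7.25% and 6.14% of chosen inserts were called higher, against 5.49% and 4.71% of all inserts, 0 differed between siRNAs, and with the replicate number as a block 0 were called for gDNA. With the culture as a block, the median fitted log2 change of chosen inserts was 1.33 to 3.21 with siWDR82 and 1.08 to 3.24 with siZC3H4. The numbers of lower calls in these fits also changed with that block. Depth limits what can be read of inserts under about 250 gDNA reads, where an insert may be missing from a culture.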
